A study of Mus musculus with 2 samples.

Results

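The genes described here are 44 interferon-stimulated genes, chosen by name as known interferon response genes, out of the 27998 genes in the deposited matrices. All 44 symbols were found in both libraries. Single-cell RNA was measured in sorted LSK cells (Lin- Sca-1+ c-Kit+), which contain the stem and progenitor cells of the marrow, from 3-month-old mice that lack or keep Trmt6, a subunit of the enzyme that writes m1A on tRNA. There was 1 library of Trmt6 WT cells, labelled Trmt6fl/fl, and 1 of Trmt6 cKO (conditional knockout) cells, labelled Trmt6fl/fl, MX1-cre. The study, in contrast, describes the Mx1-Cre transgene in both genotypes and pIpC injections of both to induce it. The time between the last injection and the sort is not given in the sources used here, nor is the number of mice per library.

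Interferons bind receptors on the cell surface, and the kinases JAK1 and TYK2 then activate STAT proteins, which join IRF9 to form the factor ISGF3. ISGF3 binds interferon-stimulated response elements (ISREs) and switches on genes that sense viral RNA, block translation, degrade RNA, trap virions or alter membranes. In the mouse, Mx1-Cre is driven by an interferon-inducible promoter, and pIpC (polyI:C), a mimic of double-stranded RNA, is given to induce interferon and thereby the recombinase. Interferon is also known to act on stem cells themselves, and stem cells are known to keep some interferon-stimulated genes on without infection.

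The levels below are CPM, the count of a gene per 1000000, of unique molecular identifiers (UMIs), each standing for 1 captured transcript, added up across all cells of a library or of a lineage. UMIs are counted once per molecule from its 3-prime end, so they were not divided by gene length. A log2 ratio is cKO over WT. Intervals are at the 95% level and take in counting error alone, and with 1 library per genotype no test between genotypes was possible. Genotype and library cannot be told apart, and no value below has a replicate check.

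The kept cells were 8151 WT cells with 41650136 UMIs (median 4141 per cell) and 8480 cKO cells with 87266501 UMIs (median 10053 per cell), so the cKO library was the deeper. The libraries shared 24 cell barcodes. Trmt6 itself stood at 63.0 CPM in the WT and 50.2 CPM in the cKO library. These values do not check the deletion, because counts per gene do not show whether a transcript holds the floxed exon. Transcripts that mark other marrow cells differed between the libraries. All 8 GMP markers were lower in cKO, with a summed level of 6670 CPM in WT against 750.4 CPM in cKO. All 8 neutrophil markers were lower, at 5624 and 2.02 CPM, with 1 of them at 0 UMIs in cKO. All 8 monocyte or dendritic cell markers were lower, at 1008 and 409 CPM. Of the 8 lymphoid-primed (LMPP) markers 6 were lower, at 561 and 165 CPM, and of the 10 HSC markers 8 were higher, at 268 and 335 CPM. Lower in cKO were also 7 of 9 megakaryocyte markers (204 and 73.9 CPM) and 7 of 8 erythroid markers (93.0 and 57.2 CPM), and 7 of 8 B cell markers were higher (73.9 and 97.8 CPM). The other lists were split. The basophil and mast cell list summed to 184 and 80.6 CPM, with 4 markers lower and 4 higher, the T and NK cell list to 574 and 280.0 CPM, with 3 lower and 4 higher, and the plasmacytoid dendritic cell list to 247 and 534 CPM, with 4 lower and 4 higher. Values within gated lineages, and values over all cells with the lineage mix of the WT library given to both, stand beside the results they touch.

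ISREs carry the link between interferon and these genes, so the motif was looked up in RefSeq promoters (build GRCm38.p6, 250 bases before to 50 after each start). The letters searched were GAAANNGAAA, on both strands, the reverse strand reading TTTCNNTTTC, and overlapping matches were counted separately. Of the 36 members whose promoter is in the table, 19 held a match, beside 3.99% of the 27025 genes with a promoter. The looser letters TTCNNNGAA, the core of the GAS element of the interferon gamma response, matched in 13 of the 36 members, beside 9.55% of genes. Oas2, Usp18, Ifi27, Ifi27l2a, Rtp4, Zbp1, Parp9 and Parp14 are not in the table. A match is a description of letters, not of a bound site. The windows of 30 bases below, 5′ to 3′ on the strand of the gene with the matches in capitals, are from 4 effectors of the type I response and from the IFITM, BST2 and RIG-I genes described further on.
Isg15, chr4:156200871-156200900: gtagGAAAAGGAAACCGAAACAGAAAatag
Ifit1, chr19:34640785-34640814: TTTCACTTTCcagtctcagTTTCAGTTTCt
Oas1a, chr5:120907523-120907552: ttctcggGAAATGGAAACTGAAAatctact
Rsad2, chr12:26456553-26456582: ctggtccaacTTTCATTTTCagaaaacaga
Bst2, chr8:71537580-71537609: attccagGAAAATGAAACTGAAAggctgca
Ifitm2, chr7:140955988-140956017: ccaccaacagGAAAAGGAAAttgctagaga
Ifitm3, chr7:141010714-141010743: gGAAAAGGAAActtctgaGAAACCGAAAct
Ddx58, chr4:40239804-40239833: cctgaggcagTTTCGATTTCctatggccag

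In Isg15, Oas1a and Bst2 the matches overlap, and in Ifitm3 and Ddx58 they begin at base 2 after the annotated start. Ifitm1, a neighbour of Ifitm2 and Ifitm3, held no match in this window. Members that held a match did not share a direction between the genotypes. Of 14 with a match and a level high enough to compare, 6 were higher and 8 lower in cKO (median log2 ratio -0.03), and of 16 without a match 7 were higher and 9 lower (median -0.16).

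The members were expressed over a wide range, and 3 of them made up most of it. Their summed level was 3707 CPM in the WT and 4537 CPM in the cKO library, of which Ifitm1, Ifitm2 and Ifitm3 gave 70.9% and 77.6%. The other 41 members summed to 1079 CPM in WT against 1018 CPM in cKO. The median member stood at 20.1 CPM in WT against 16.5 CPM in cKO, and the lowest, Ifit3, at 0.624 and 0.642 CPM. The genes most often used to read a type I interferon response in a cell were low in both libraries. Summed over 14 of them (Ifit1, Ifit2, Ifit3, Isg15, Rsad2, Usp18, Oasl2, Oas1a, Oas2, Irf7, Rtp4, Xaf1, Zbp1 and Ifi44, called effectors below), the level was 156 CPM in WT against 147 CPM in cKO.

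**Figure D1:**
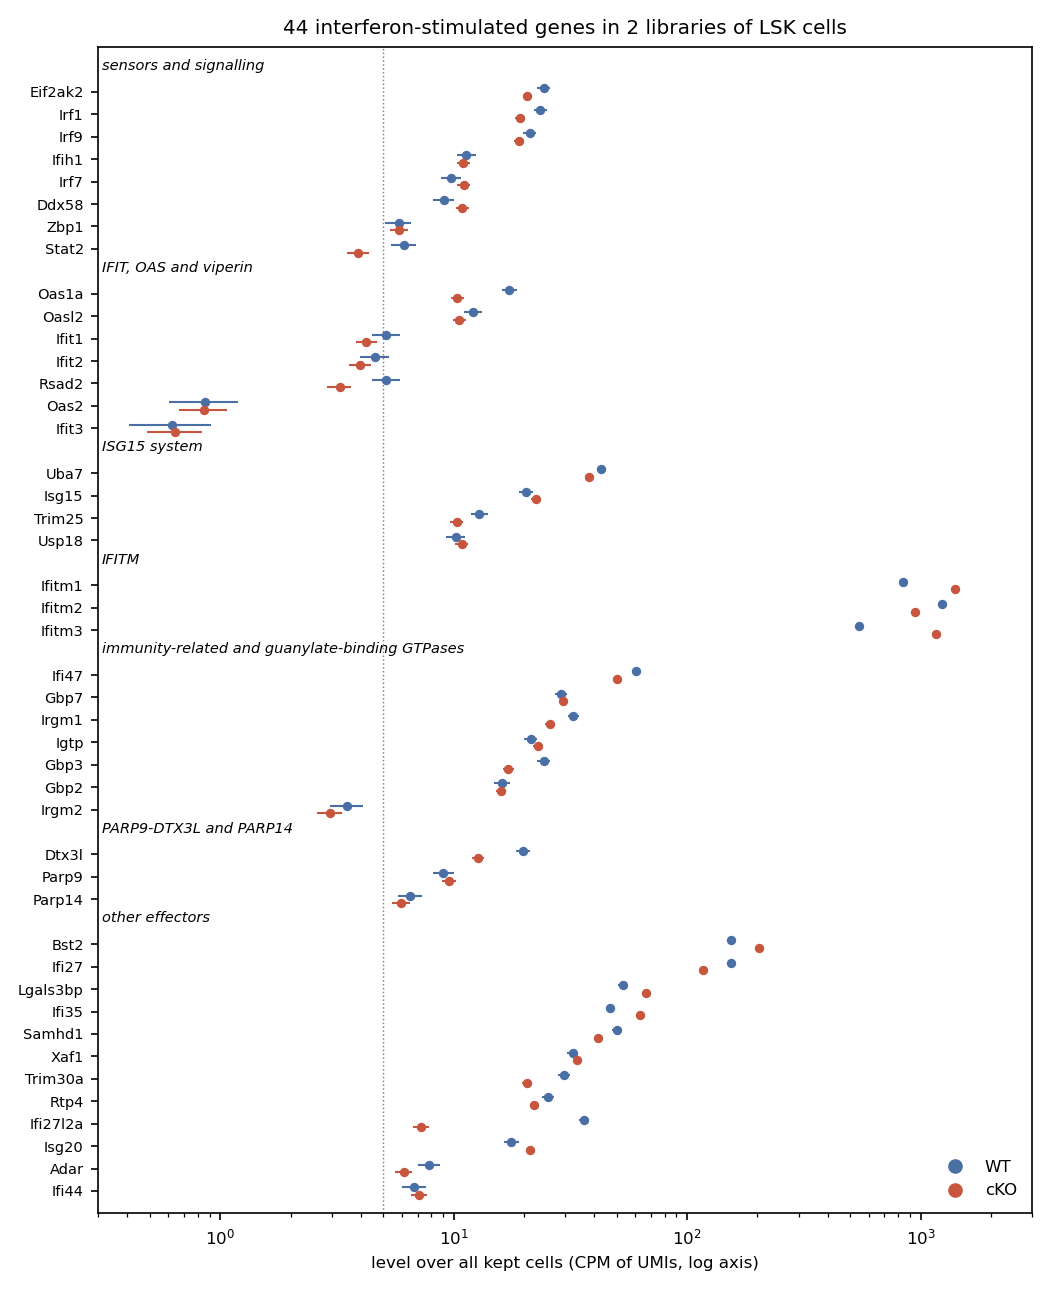
Level of each of the 44 members over all kept cells (CPM of UMIs, log axis), grouped by role, in the WT (blue) and cKO (red) library, with 95% counting intervals as bars. The dotted line marks 5 CPM, and the IFITM genes lie far to the right of all other groups.

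Of the 44 members 37 reached a mean of 5 CPM over the libraries and were compared. The 7 below it were Ifit1, Ifit2, Ifit3, Oas2, Rsad2, Irgm2 and Stat2. The median log2 ratio of the 37 was -0.13, beside -0.07 over all 8790 genes at that level. Of the 37, 16 lay above 0 and 21 below, and 43.2% of all genes lay above 0. At or past a log2 ratio of 1, only Ifitm3 was higher, beside 2.45% of all genes, and only Ifi27l2a was lower, beside 4.64% of all genes. Ifitm3 fell short of that ratio with each cell scaled before averaging (0.98) and with the same lineage mix in both libraries (0.89). The other 35 lay between -0.74 (Oas1a) and 0.74 (Ifitm1). Counting intervals lay wholly above 0 for 9 members and wholly below for 18, beside 33.1% and 45.2% of all genes. The 3 other scalings of the libraries tried each raised all log2 ratios by a constant, between 0.06 and 0.10. The 9 therefore could not leave their side, and only the 18 were open to change. Of the 18, 14 stayed below 0 under all 3 scalings, the exceptions being Irf9, Oasl2, Rtp4 and Uba7. With TMM factors the intervals of Igtp, Gbp7, Xaf1 and Usp18 also lay above 0, which made 13 members above and 14 below, beside 42.8% and 35.8% of all genes. Over all cells the interferon-stimulated genes thus lay on both sides of 0. The 9 whose intervals, scaled by total UMIs, lay against the median were Ifitm3, Ifitm1, Ifi35, Bst2, Lgals3bp, Isg20, Ddx58, Irf7 and Isg15. Of these, Isg15 was at -0.05 with each cell scaled before averaging and Ddx58 at -0.03 with the same lineage mix. Under the first of these settings Isg20 was at 0.06 and Ddx58 at 0.03, and with the same lineage mix Isg20 was at 0.07.

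**Figure D2:**
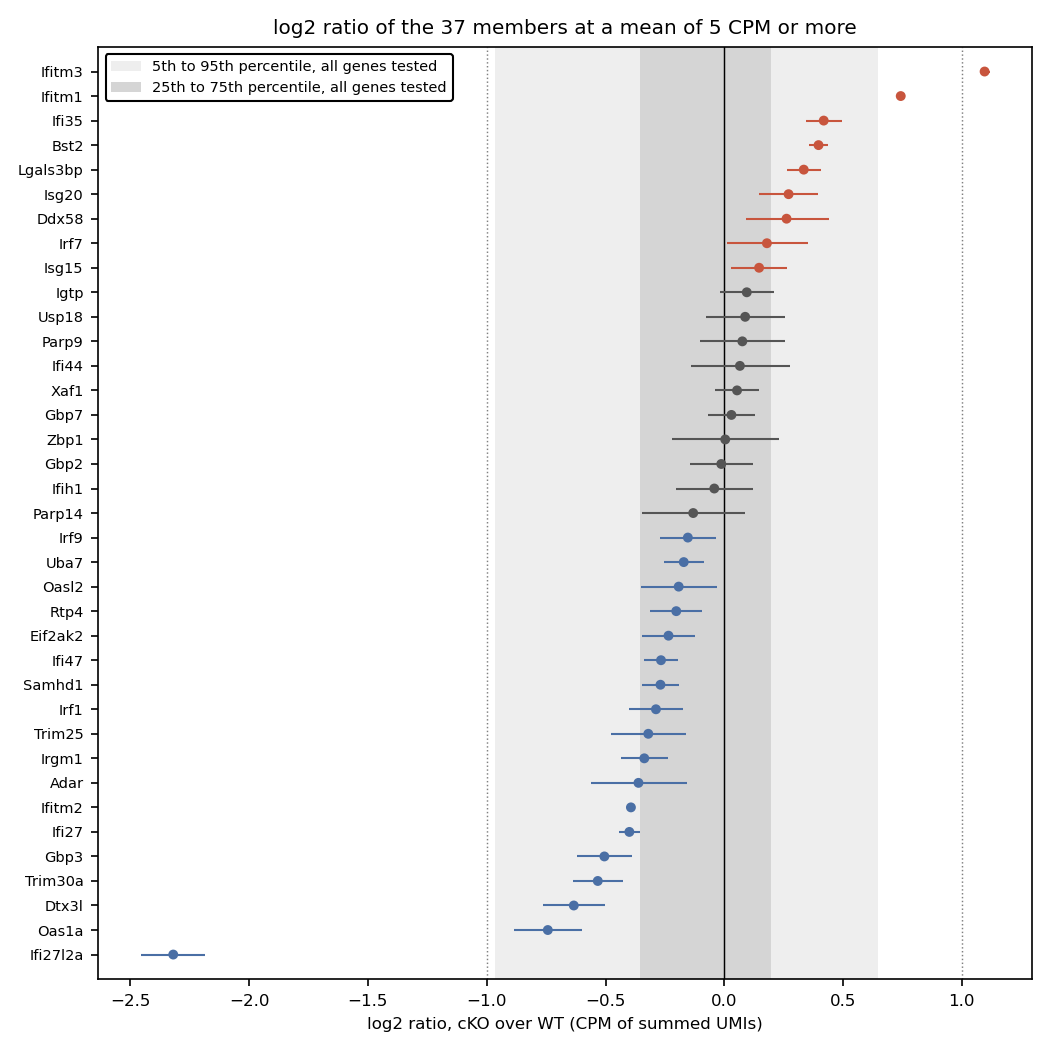
log2 ratio (cKO over WT) of the 37 members at a mean of 5 CPM or more, with 95% counting intervals in red (wholly above 0), blue (wholly below 0) or grey (spanning 0). Shading shows the middle 50% and 90% of all 8790 genes, and dotted lines mark log2 ratios of -1 and 1. Ifitm3, Ifitm1 and Ifi27l2a lie outside the wider band.

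The sensors and signalling factors named here lay between -0.65 (Stat2) and 0.26 (Ddx58). Ddx58 encodes RIG-I, a cytosolic sensor of viral RNA, and stood at 9.05 CPM in WT against 10.9 CPM in cKO (log2 ratio 0.26, 0.09 to 0.44). Its partner sensor MDA5, encoded by Ifih1, stood at 11.3 and 11.01 CPM (-0.04, -0.20 to 0.12). The sensor kinase PKR (Eif2ak2), which blocks translation through eIF2alpha, was at 24.3 and 20.7 CPM (-0.23, -0.35 to -0.12). The 2 RNA sensors of the RIG-I family thus differed little between the libraries, and PKR was slightly lower in cKO. Zbp1, a sensor of Z-form nucleic acid, was at 5.81 and 5.83 CPM. Among the transcription factors, Irf7, the amplifier of interferon production, was at 9.75 and 11.05 CPM (0.18, 0.01 to 0.35), while Irf1 was at 23.5 and 19.2 CPM (-0.29, -0.40 to -0.17). The ISGF3 subunits among the members were lower, Irf9 at 21.2 and 19.0 CPM (-0.15, -0.27 to -0.03) and Stat2 at 6.10 and 3.88 CPM (-0.65, -0.89 to -0.41), a gene with a mean just under 5 CPM.

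The IFIT, OAS and viperin genes, which bind or degrade viral RNA or make an antiviral nucleotide, held 5 of the 7 members below the minimum. Oas1a, an oligoadenylate synthetase that activates RNase L, stood at 17.3 CPM in WT against 10.4 CPM in cKO (log2 ratio -0.74, -0.89 to -0.60). Oasl2, a related protein, was at 12.1 and 10.6 CPM (-0.19, -0.35 to -0.03). Rsad2, which encodes viperin, rested on 214 WT and 283 cKO UMIs, or 5.14 and 3.24 CPM (-0.66, -0.93 to -0.40). Of the group, these 3 and Ifit1 (5.14 and 4.23 CPM) had an interval below 0 and none had one above. Rsad2 and Ifit1 are among the members below the minimum. Of the 2 at the minimum, Oas1a and Oasl2, both lay below 0, beside 45.2% of all genes compared, and none above, beside 33.1%. With TMM factors the ratios of Oasl2 and Ifit1 were -0.09 and -0.18, with intervals that spanned 0. Ifit2 was at 4.59 and 3.98 CPM, and for Oas2 and Ifit3, both under 1 CPM, no difference was detectable at this depth. Ifit3 has a near-identical neighbour, Ifit3b, and Oas1a has close copies such as Oas1g, so reads that fit both copies make these counts uncertain.

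In the ISG15 system, a ubiquitin-like modifier and the enzymes that attach and remove it, the members did not move together. Isg15 itself was at 20.3 CPM in WT against 22.5 CPM in cKO (0.15, 0.03 to 0.26). Uba7, the enzyme that activates ISG15, was at 42.9 and 38.1 CPM (-0.17, -0.25 to -0.09), and Trim25, a ligase that also acts on RIG-I, at 12.9 and 10.3 CPM (-0.32, -0.48 to -0.16). Usp18, which removes ISG15 and restrains the interferon receptor, was at 10.2 and 10.9 CPM (0.09, -0.08 to 0.26). All 4 ratios were small. The sides of Isg15 and Uba7 depended on the scaling, Isg15 lying at -0.05 with each cell scaled before averaging and the interval of Uba7 spanning 0 with TMM factors (-0.07).

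The GTPases that act on vacuoles of intracellular pathogens, many of them known for their response to interferon gamma, were mostly level or lower when scaled by total UMIs. Ifi47 stood at 60.1 CPM in WT against 49.98 CPM in cKO (-0.27, -0.34 to -0.19), Irgm1, a regulator of the other immunity-related GTPases, at 32.5 and 25.7 CPM (-0.34, -0.43 to -0.24), and Gbp3 at 24.3 and 17.1 CPM (-0.50, -0.62 to -0.39). Gbp2 (16.1 and 16.0 CPM), Gbp7 (28.9 and 29.5 CPM) and Igtp (21.4 and 22.8 CPM) had intervals that spanned 0, although that of Igtp lay above 0 under the 3 other scalings (0.16 to 0.19) and that of Gbp7 under 2 of them, and Irgm2 was at 3.48 and 2.95 CPM. The gene models of Igtp and Irgm2 overlap on chromosome 11, so their counts are uncertain. Of the PARP genes, Dtx3l, a ubiquitin ligase that works as a pair with PARP9, was at 19.8 and 12.8 CPM (-0.63, -0.76 to -0.50), while Parp9 itself was at 9.03 and 9.52 CPM (0.08, -0.10 to 0.26). Parp14 was at 6.51 and 5.95 CPM (-0.13, -0.34 to 0.09). Dtx3l was thus lower in cKO while no difference was detectable for Parp9, and the gene models of this pair overlap at 1 end.

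The remaining effectors held members on both sides. Bst2 encodes tetherin, which holds virions at the cell surface, and stood at 154 CPM (150.4 to 158) in WT against 203 CPM (199.9 to 206) in cKO (log2 ratio 0.40, 0.36 to 0.44). Ifi35 was at 46.8 and 62.6 CPM (0.42, 0.34 to 0.49), Lgals3bp, a secreted glycoprotein, at 52.8 and 66.6 CPM (0.33, 0.26 to 0.41), and Isg20, an exonuclease, at 17.6 and 21.3 CPM (0.27, 0.15 to 0.40). On the other side, Ifi27 was at 154 and 117 CPM (-0.40, -0.44 to -0.35), although it and Bst2 had nearly the same level in WT. Lower in cKO were also Trim30a (29.7 and 20.5 CPM, log2 ratio -0.53), Samhd1, a dNTP hydrolase (49.8 and 41.4 CPM, -0.27), Rtp4 (25.4 and 22.1 CPM, -0.20) and the RNA editor Adar (7.83 and 6.10 CPM, -0.36). Xaf1 (32.4 and 33.6 CPM) and Ifi44 (6.77 and 7.09 CPM) had intervals that spanned 0.

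The largest difference of all members was that of Ifi27l2a, which encodes a small membrane protein next to Ifi27 on chromosome 12 (103442167 to 103443680, GRCm38). It had 1502 UMIs or 36.1 CPM in WT and 630 UMIs or 7.22 CPM in cKO (log2 ratio -2.32, -2.46 to -2.19). With the lineage mix of the WT library in both, the ratio was -1.15. That value gives the 12 cKO cells of the monocyte or dendritic cell gate, described further on, the weight of that gate in WT. On cells thinned to 2000 UMIs each, at least 1 UMI of it was found in 5.98% (5.47 to 6.52) of the WT and 1.61% (1.35 to 1.91) of the cKO cells. Its neighbour Ifi27 (103434211 to 103440239) was lower by much less.

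The IFITM proteins sit in membranes and hinder the fusion of viruses with them, and their genes lie side by side on chromosome 7. Ifitm3 (141009586 to 141010770) stood at 545 CPM (538 to 553) in WT against 1166 CPM (1159 to 1173) in cKO (log2 ratio 1.10, 1.08 to 1.12). Ifitm1 (140967221 to 140969825) stood at 842 CPM (833 to 851) and 1409 CPM (1401 to 1417) (log2 ratio 0.74, 0.73 to 0.76), or 0.44 with the same lineage mix. Ifitm2 (140954837 to 140955987), between levels of 1240 CPM (1230 to 1251) and 944 CPM (938 to 951), had a log2 ratio of -0.39 (-0.41 to -0.38). Neighbouring genes of 1 family thus lay on opposite sides of 0, and the order Ifitm2, Ifitm1, Ifitm3 in WT became Ifitm1, Ifitm3, Ifitm2 in cKO. The share of thinned cells with a UMI went the same way, with 64.3% of WT and 83.6% of cKO cells for Ifitm3, 71.4% and 78.6% for Ifitm1, and 90.5% and 82.5% for Ifitm2. The coding sequences of this family are alike, and reads that fit more than 1 copy make the split between them uncertain.

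Cells were next assigned to lineages by markers that include no member, on profiles thinned to 2000 UMIs, of which 7947 WT and 8375 cKO cells had enough. A cell entered a gate with at least 3 distinct markers of its list. HSC-gated cells numbered 293 in WT and 367 in cKO, and LMPP-gated cells 544 and 78. The GMP gate held 489 and 25 cells, the monocyte or dendritic cell gate 244 and 12, the megakaryocyte gate 77 and 10, and the neutrophil gate 55 WT cells and none of 8375 in cKO, where 3 counts of the total, the limit used for a count of 0, would be 0.0358%. The erythroid (36 and 19 cells), basophil or mast cell (8 and 16), plasmacytoid dendritic cell (21 and 50), B cell (6 and 44) and T or NK cell (1 and 13) gates were small. Cells in no gate, called ungated, were 5947 and 7688. Genotypes were compared within HSC-gated, LMPP-gated and ungated cells, which had at least 30 cells in each library. Within the gates the summed markers stood at 1637 and 1127 CPM in HSC-gated and at 2392 and 2312 CPM in LMPP-gated cells, for WT and cKO.

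Within each of these 3 lineages the median of the members lay further below 0 than over all cells, with the lower minimum of 10 UMIs letting in members that were too low to compare there. In HSC-gated cells 42 members had at least 10 UMIs, with a median log2 ratio of -0.38 beside -0.12 over all 10245 genes. At or past the fold, 0 members were higher, beside 4.66% of genes, and 2 were lower, Rsad2 and Adar, beside 9.04% of genes, although the interval of Adar spanned 0. In LMPP-gated cells 38 members had a median of -0.43 beside -0.04 over 9559 genes, with 1 higher (Parp9), beside 5.18% of genes, and 6 lower (Ifi27l2a, Ifitm1, Ifi44, Adar, Oasl2 and Trim30a), beside 10.8% of genes. Of these 6, Ifi44, Adar and Oasl2 rested on 1, 1 and 3 cKO UMIs and had intervals that spanned 0. In ungated cells 44 members had a median of -0.31 beside -0.13 over 14046 genes, with Ifitm3 higher, beside 6.79% of genes, and Ifi27l2a lower, beside 10.9% of genes. Ratios above 0 were those of 10 of 42, 13 of 38 and 7 of 44 members, beside 41.2%, 47.4% and 40.5% of all genes in these lineages. In HSC-gated cells the intervals of 3 members lay above 0 and of 5 below, beside 8.8% and 14.4% of genes. In LMPP-gated cells they were 1 and 5, beside 9.56% and 9.83% of genes. In ungated cells they were 5 and 28, beside 24.9% and 40.7% of genes, so that most members were lower there. When cells were gated on all their UMIs, 5 more gates passed the cell minimum. That gating is not matched for depth, and markers are found more easily in the deeper cKO library. It put 730 WT and 3149 cKO cells in the HSC gate, against 293 and 367 on thinned cells. The cells of such a gate need not be alike between the libraries. The median of the members was -0.28 in the GMP, -0.42 in the megakaryocyte, -0.34 in the erythroid and -0.27 in the plasmacytoid dendritic cell gate, beside -0.05, -0.08, 0.01 and -0.22 over all genes. It was 0.39 in the monocyte or dendritic cell gate, with 148 WT and 44 cKO cells and 30 members, beside -0.02. The cells compared differed in depth, with median UMIs of 2936 and 6735 in HSC-gated and 3702 and 7470 in LMPP-gated cells.

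Ifitm1 differed in opposite directions between lineages. In HSC-gated cells it stood at 1671 CPM in WT against 2998 CPM in cKO (log2 ratio 0.84, 0.77 to 0.92). In LMPP-gated cells it stood at 726 CPM in WT against 277 CPM in cKO (log2 ratio -1.39, -1.63 to -1.16), which rested on 172 cKO UMIs. In ungated cells it was at 983 and 1398 CPM (0.51, 0.49 to 0.53). HSC-gated cells thus had the highest Ifitm1 of the 3 in both libraries, and the step from LMPP-gated to HSC-gated cells was 1.20 (1.10 to 1.30) on the log2 scale in WT and 3.43 (3.22 to 3.66) in cKO. When cells were gated on all their UMIs instead, which put 890 WT and 325 cKO cells in the LMPP gate, the LMPP ratio was -0.62 and the HSC ratio 0.66. The step between them was then 0.67 (0.60 to 0.74) in WT and 1.95 (1.88 to 2.01) in cKO. Of the gates with few cKO cells, the megakaryocyte gate had 328 and 850.0 CPM and the GMP gate 449 and 314 CPM, while gating on all UMIs gave 698 and 683 CPM (-0.03) in 687 WT and 225 cKO GMP-gated cells.

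Ifitm3 was higher in cKO in HSC-gated cells, at 889 and 1711 CPM (0.94, 0.84 to 1.05), and in ungated cells, at 585 and 1177 CPM (1.01, 0.98 to 1.03). In LMPP-gated cells it was at 450.0 and 433 CPM, and no difference was detectable (-0.05, -0.26 to 0.14), while gating on all UMIs gave 0.32. Ifitm2 was lower in cKO in all 3, at 1458 and 1188 CPM in HSC-gated (-0.30), 1035 and 603 CPM in LMPP-gated (-0.78) and 1310 and 949 CPM in ungated cells (-0.47). The difference in direction between Ifitm2 and Ifitm3 was thus also present among HSC-gated cells alone.

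**Figure D3:**
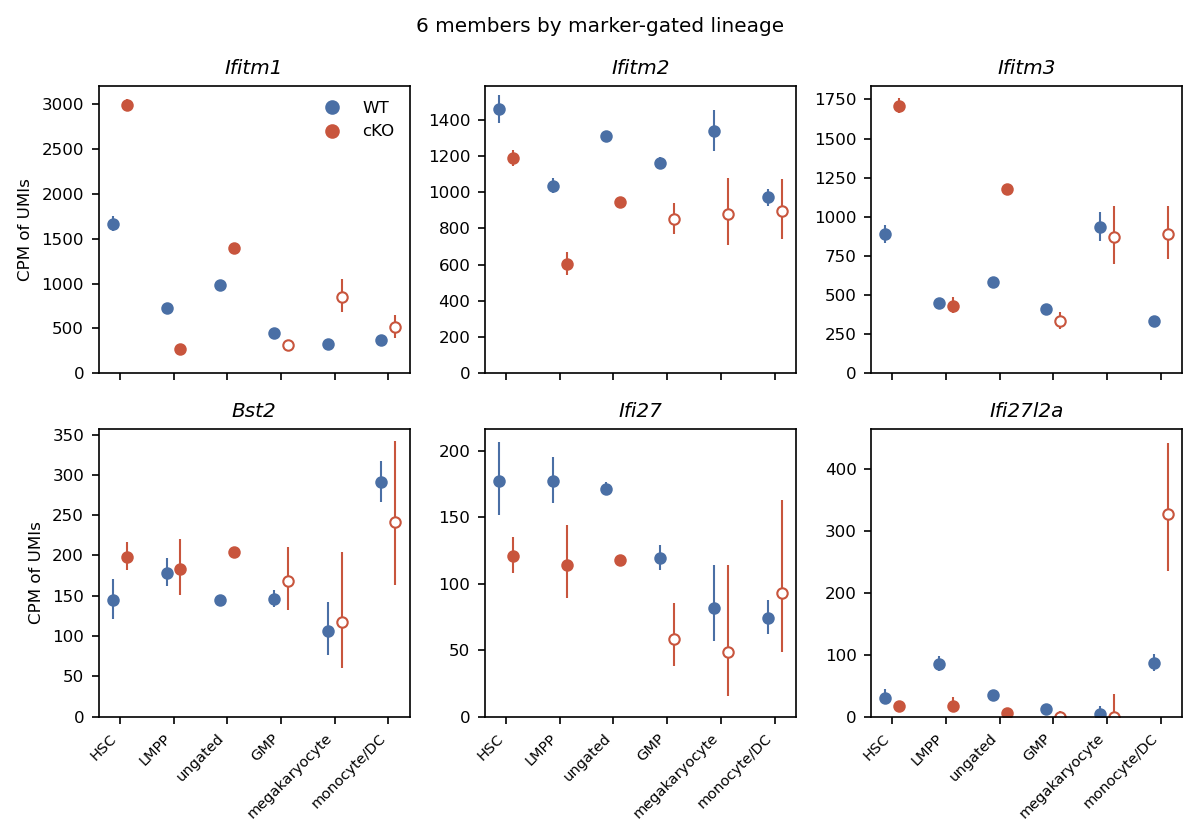
Levels (CPM of UMIs) of 6 members in 6 marker-gated lineages in the WT (blue) and cKO (red) library, with 95% counting intervals. Open points rest on fewer than 30 cells. Ifitm1 is higher in cKO HSC-gated cells and lower in cKO LMPP-gated cells, and Ifitm2 and Ifi27 are lower in cKO in the first 3 lineages.

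Ifi27l2a was lower in cKO in each of the 3 lineages. It stood at 30.7 and 16.8 CPM in HSC-gated cells (-0.88, -1.58 to -0.14), on 29 and 44 UMIs, or 34.8 and 8.95 CPM (-1.96) with gating on all UMIs, at 84.3 and 17.7 CPM in LMPP-gated cells (-2.19, -3.28 to -1.38), and at 34.8 and 6.25 CPM in ungated cells (-2.48, -2.63 to -2.32). The monocyte or dendritic cell gate went the other way, at 86.2 CPM in 244 WT cells and 327 CPM in 12 cKO cells (1.94, 1.40 to 2.42). Gating on all UMIs gave 87.1 and 107 CPM (0.30). In the gate on thinned cells Irf7 was also higher in cKO (3.29 and 85.6 CPM, on 6 and 11 UMIs), as was the sum of the 14 effectors (73.0 and 249 CPM). The number of cKO cells there was too small for a comparison of lineages.

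Ifi27 was lower in cKO at nearly the same size in HSC-gated (178 and 121 CPM, -0.56), LMPP-gated (177 and 114 CPM, -0.63) and ungated cells (172 and 118 CPM, -0.54). Bst2 was at 145 and 198 CPM in HSC-gated (0.45, 0.18 to 0.74), 179 and 183 CPM in LMPP-gated (0.04, -0.27 to 0.34) and 144 and 204 CPM in ungated cells (0.50, 0.45 to 0.55). With gating on all UMIs the LMPP ratio of Bst2 was 0.31, at 161 and 199 CPM, so the value from 78 cKO cells depended on the gate. Of the other members above 0 over all cells, Ifi35 was at 59.2 and 59.1 CPM in HSC-gated, 51.3 and 66.0 CPM in LMPP-gated and 46.9 and 62.8 CPM in ungated cells, where its interval alone lay above 0 (0.42, 0.33 to 0.51). Lgals3bp was at 75.1 and 88.9 CPM, 46.1 and 64.4 CPM, and 58.7 and 66.6 CPM in the same order, again with an interval above 0 in ungated cells alone (0.18, 0.10 to 0.26).

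Isg15, Isg20, Irf7 and Ddx58 had intervals that spanned 0 in all 3 lineages. In HSC-gated cells Isg15 was at 36.0 and 27.5 CPM (-0.40), Isg20 at 42.3 and 31.7 CPM (-0.43), Irf7 at 14.8 and 21.7 CPM (0.52) and Ddx58 at 18.0 and 16.8 CPM (-0.12). In LMPP-gated cells Isg15 was at 28.7 and 17.7 CPM (-0.64), Isg20 at 17.8 and 24.1 CPM (0.47), Irf7 at 18.3 and 24.1 CPM (0.43) and Ddx58 at 8.26 and 8.04 CPM (0.06). In ungated cells their ratios were 0.03, 0.08, -0.10 and -0.03. Within the lineages these 4 genes had no common sign, and no difference was detectable at this depth.

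The smaller gates are given as values side by side, without the T or NK cell gate, which held 1 WT cell. Ifitm1 was highest in the basophil or mast cell gate in WT, at 2120 CPM (605 CPM in cKO), and lowest in WT neutrophil-gated cells, at 82.3 CPM. Elsewhere it was at 727 and 588 CPM in the plasmacytoid dendritic cell gate, where gating on all UMIs turned the direction (540 and 764 CPM, 0.49, in 35 and 406 cells). It was at 376 and 514 CPM in the monocyte or dendritic cell, 341 and 226 CPM in the erythroid and 313 and 73.1 CPM in the B cell gate. Ifitm3 ranged from 131 CPM (basophil or mast cell) to 935 CPM (megakaryocyte) in WT, and in cKO these gates had 296 and 869.6 CPM. Ifitm2 was the most even of the family, between 504 CPM (neutrophil) and 1519 CPM (basophil or mast cell) in WT. Bst2, a known surface marker of plasmacytoid dendritic cells, was at its highest in that gate, at 369 and 272 CPM, followed by the monocyte or dendritic cell gate, at 291 and 241 CPM, and was at 7.72 CPM in WT neutrophil-gated cells. Irf7, known to be high in plasmacytoid dendritic cells, was only at 10.9 and 7.61 CPM in that gate, so the gate is called here by its markers alone. In all these gates Isg15, Isg20, Irf7 and Ddx58 rested on at most 42 UMIs in a library.

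Within each library the level of the summed effectors also differed between lineages, and it was ordered alike in both over HSC-gated, LMPP-gated, ungated and GMP-gated cells. Of these 4, HSC-gated cells stood highest, at 281 CPM (249 to 317) in WT against 213 CPM (196 to 232) in cKO. LMPP-gated cells had 185 CPM (168 to 203) and 156 CPM (126 to 190), and ungated cells 178 CPM (173 to 183) and 146 CPM (143 to 148). GMP-gated cells had 73.4 CPM (66.4 to 80.9) and 65.1 CPM (43.6 to 93.5). LMPP-gated and ungated cells had overlapping intervals in both libraries, and the other neighbours in this order did not overlap. The order did not extend to all gates, since the 12 cKO cells of the monocyte or dendritic cell gate (249 CPM) and the 13 of the T or NK cell gate (396 CPM) stood above the HSC-gated cKO cells. Against ungated cells, the median member was higher in HSC-gated cells by 0.57 on the log2 scale in both libraries, beside 0.18 in WT and 0.16 in cKO over all genes. Intervals lay above 0 for 16 of 44 members in WT, beside 12.7% of all genes, and for 25 in cKO, beside 17.1% of all genes. Both libraries shared 13 of them, beside 6.45% of all genes, namely Ifitm1, Ifitm2, Ifitm3, Rsad2, Ifit1, Ifi44, Isg20, Rtp4, Uba7, Ifih1, Irgm1, Gbp2 and Gbp7. An interval below 0 was that of 1 member in WT (Eif2ak2), beside 6.96% of all genes, of 0 in cKO, beside 9.65%, and of 0 in both, beside 4.07%. Against GMP-gated cells the median of 42 members with at least 10 UMIs was higher by 1.35 in WT and 1.25 in cKO, beside 0.26 and 0.09 over all genes. Intervals lay above 0 for 31 of them in WT, beside 27.2% of all genes, and for 21 in cKO, beside 13.3%. They lay above 0 in both libraries for 20, beside 10.1% of all genes, and below 0 in both for 1, Gbp3, beside 7.18% of all genes.

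**Figure D4:**
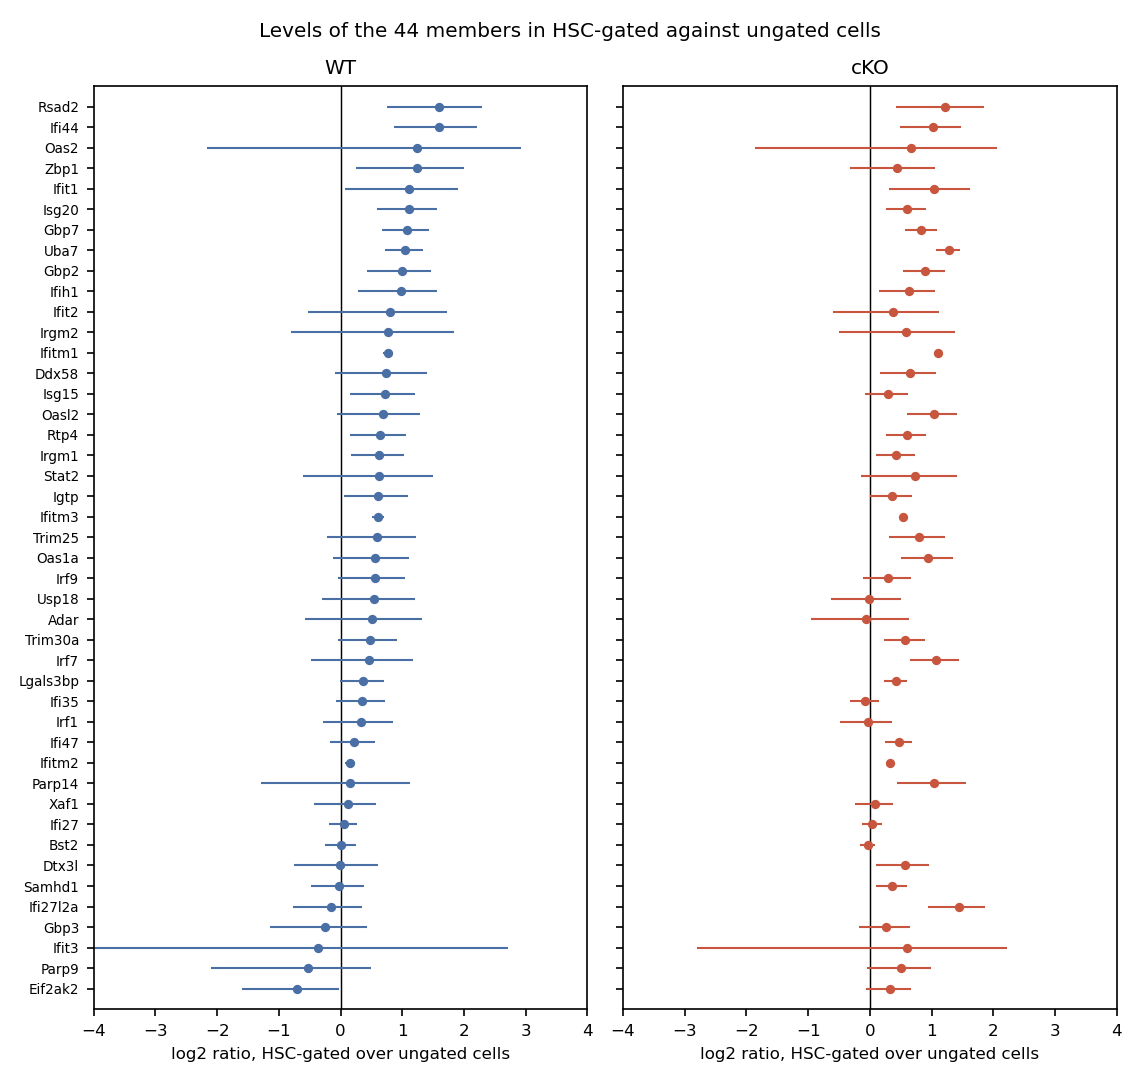
log2 ratio of HSC-gated over ungated cells for each of the 44 members in the WT (left) and cKO (right) library, in the order of the WT values, with 95% counting intervals (cut at the frame where they run past it). Above 0 lie 37 members in WT and 39 in cKO, beside 62.9% and 63.5% of all genes.

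The effectors were spread unevenly over cells. In cells thinned to 2000 UMIs, 5928 of 7947 WT cells and 6420 of 8375 cKO cells held no effector UMI, and the variance of the count was 2.26 times its mean in WT and 2.14 times in cKO. At least 3 effector UMIs were found in 190 WT cells, or 2.39% (2.07 to 2.75), and in 141 cKO cells, or 1.68% (1.42 to 1.98). These cells are the upper end of a range and not a type, since 349 WT and 325 cKO cells held 2 effector UMIs and 107 and 77 held exactly 3. At least 10 were found in 9 WT and 10 cKO cells, and the highest cell held 24 in WT and 25 in cKO. A few cells far above the rest were thus present in both libraries. The order of the libraries depended on depth, because without thinning the shares were 7.08% in WT and 16.6% in cKO. By lineage, 9 of 293 WT and 6 of 367 cKO HSC-gated cells had at least 3, as did 20 of 544 WT and 1 of 78 cKO LMPP-gated cells, 2 of 489 and 0 of 25 GMP-gated cells, and 154 of 5947 and 130 of 7688 ungated cells.

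**Figure D5:**
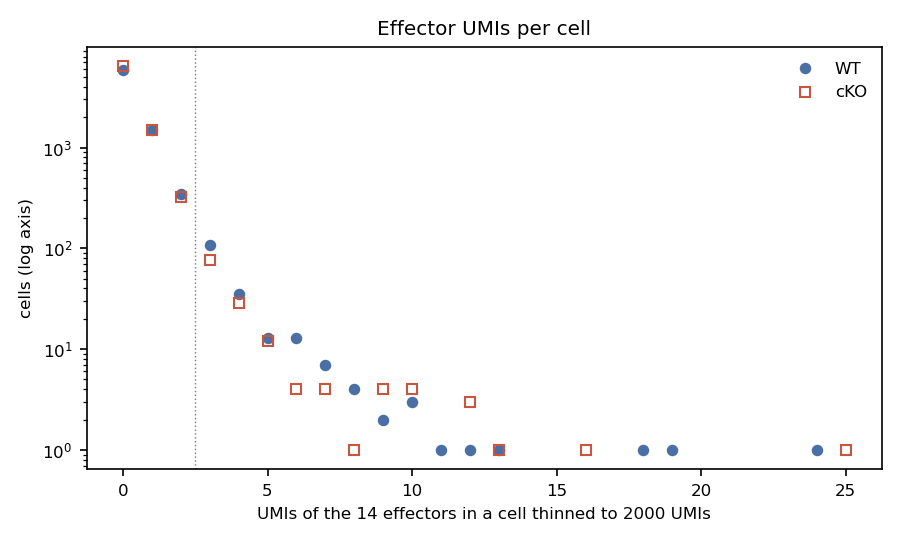
Number of cells (log axis) by the summed UMIs of the 14 effectors in a cell thinned to 2000 UMIs, in the WT (filled circles) and cKO (open squares) library. The dotted line marks the limit of at least 3 UMIs, and counts with no cell are not drawn. Both libraries have a tail that ends at 24 and 25 UMIs.

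In the cells with at least 3 effector UMIs, other members were higher as well. For each effector the cells were chosen on the other 13, so that no gene was used to choose the cells it was measured in. On this basis the median log2 ratio of the 14 effectors, here without prior UMIs, was 2.96 in WT and 2.97 in cKO. Intervals lay above 0 for all 14 in WT and for 12 in cKO, the exceptions being Ifit2 and Oas2. Of the 30 members that are not effectors, 22 had an interval above 0 in WT (median 1.16) and 20 in cKO (median 1.21), and none had one below. Over all genes that are not members, 4.46% in WT and 2.67% in cKO had an interval above 0, with medians of -0.02 and -0.06, and 3.03% and 1.62% had one below. Bst2 stood at 221 CPM in these cells and 149 CPM in the rest in WT, and at 329.8 and 204 CPM in cKO. Ifitm3 stood at 1179 and 599 CPM in WT and at 2227 and 1201 CPM in cKO, while Ifitm2 differed little, at 1292 and 1304 CPM in WT and 1025 and 978 CPM in cKO. Ifitm3 and Ifitm2, which differed in direction between the genotypes, thus also differed in how far they went with the effectors among cells of 1 library. Rtp4 was among the most abundant effectors there, at 272 CPM against 28.3 CPM in WT and 255 CPM against 24.6 CPM in cKO.

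The rest of the pathway was compared from a list of genes that are not members. The receptor and kinase genes are given first, each with its own values. The type I receptor subunits were at 18.3 and 15.4 CPM for Ifnar1 (-0.25) and 78.0 and 63.1 CPM for Ifnar2 (-0.31). The interferon gamma receptor subunit Ifngr1 was at 97.8 and 64.1 CPM (-0.61), and Ifngr2 at 23.5 and 24.1 CPM (0.03). Both known chains of each receptor were therefore detected in both libraries, whereas Ifnlr1, the private chain of the lambda receptor, had 1 UMI in WT and 0 in cKO. Its shared chain Il10rb was at 62.8 and 34.1 CPM (-0.88). Of the kinases, Jak1 was at 87.8 and 75.7 CPM (-0.22), Jak2 at 15.0 and 8.47 CPM (-0.82) and Tyk2 at 6.46 and 5.06 CPM (-0.35).

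Transcripts of interferons themselves were nearly absent, with at most 2 UMIs in a library for each of 9 ligand genes. Among adaptors and upstream factors, 9 of 14 genes were compared, with 5 intervals below 0 and 1 above, beside 45.2% and 33.1% of all genes, and 1 gene was past the fold. That gene was Irf8, a factor of monocyte and dendritic cell development as well as of interferon signalling, at 191 CPM in WT against 12.9 CPM in cKO (-3.89, -3.98 to -3.80). Tlr7, an endosomal RNA sensor, was below the minimum, at 128 and 54 UMIs (-2.30), and Tlr3, the double-stranded RNA sensor of the endosome, had 3 and 19 UMIs. The GMP and the monocyte or dendritic cell markers moved with Irf8 and Tlr7, as given above, and their part in these values was not tested. The inhibitors went to both sides. Socs1, a feedback inhibitor of the interferon receptors, was at 6.22 and 15.9 CPM (1.35, 1.16 to 1.55), and Socs3, which restrains other cytokine receptors, at 26.3 and 11.3 CPM (-1.22, -1.34 to -1.09).

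Of 40 further interferon response genes 33 were in the matrices and 15 were compared, with a median of -0.07, 4 intervals above 0 and 7 below, beside 33.1% and 45.2% of all genes. Ly6a, which encodes Sca-1, was the 1 gene past the fold, at 34.5 and 142 CPM (2.04, 1.96 to 2.12). Ly6a is interferon-inducible, and the cells of both libraries were sorted on its protein. It was higher in cKO in HSC-gated (77.2 and 210.2 CPM, 1.44), LMPP-gated (47.0 and 94.9 CPM, 1.02) and ungated cells (39.2 and 140.3 CPM, 1.84). Of the genes below the minimum, Gbp8 had 28 and 235 UMIs (log2 ratio 1.98), Gbp9 5 and 83 (2.86) and Gbp4 14 and 73 (1.27). Ifi204 had 31 and 12 UMIs (-2.40), Ifi205 41 in each (-1.07, -1.73 to -0.41) and Ifit3b 11 and 8 (-1.50). These ratios are of CPM, since the cKO library was the deeper. Mx1, the gene whose promoter drives the recombinase, had 20 and 23 UMIs (-0.87, -1.79 to 0.08). Of 12 antigen presentation genes 11 were compared, with a median of -0.15, 3 intervals above 0 and 6 below, beside the same shares, and none past the fold.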

How the data were processed

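The authors counted reads with Cell Ranger 6.0.0 (per the labels) on mm10 and deposited matrices of UMI counts per gene and barcode for 2 libraries of sorted LSK cells. The labels name the v2 kit and the study the v3 kit. The study's limits were applied per library: over 200 genes, under 4000 genes and 10% mitochondrial UMIs in WT, under 4500 genes and 5% in cKO, and under 5% hemoglobin UMIs. Barcodes most like simulated doublets (7.09% of WT, 7.41% of cKO) were removed, leaving 91.9% and 91.6%. Levels are CPM of summed counts, and log2 ratios carry 0.5 prior UMIs. Intervals (scipy 1.17.1) are exact: Poisson around a CPM, Clopper-Pearson around a share, and conditional binomial around a ratio. Genes needed a mean of 5 CPM, or 10 UMIs over both libraries within a lineage.

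Cells thinned to 2000 UMIs entered a lineage with 3 distinct markers. GMP cells also needed 20 and neutrophils 40 marker UMIs, and cells in more than 1 gate (226 WT, 53 cKO) stayed out. Values by lineage are given for members past a log2 ratio of 1, for the 5 highest members and for members whose interval, scaled by total UMIs, lay wholly on the other side of 0 from the median. Pathway genes are named past that ratio or where they encode a receptor, kinase or STAT, of which 1 is not reported here. The members and lists were chosen with earlier results of these data known. The markers Cavin2 and Trbc1 and the list genes Mx2, Ifi206, Ifi207, Ifi209, Ifi211, Ifi213 and Oas1b did not match a symbol in the matrices, and Gbp6, which has more than 1 identifier there, is not described. Coordinates are from GENCODE on GRCm38. Alternatives were other scalings (edgeR 4.0.16 TMM factors, median-of-ratios size factors, totals without mitochondrial and ribosomal protein genes), cell filters, gates, thinning and minimum levels.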

Additional observations from a re-analysis of the deposited data

Results flagged for a closer look

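Ifitm1 had log2 ratios of opposite sign in the lineages compared, 0.84 in HSC-gated and -1.39 in LMPP-gated cells, and each rests on 1 library per genotype. The difference between the lineages was not tested.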

How the results depend on the processing

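No alternative changed the sign of the median log2 ratio of the members, which lay below 0 and below the median of all genes under all 9 alternatives (-0.24 with each cell scaled before averaging or with the same mix of lineages, -0.03 with TMM factors). The 3 other scalings of the libraries move members and all genes alike. They could not change the distance to the median of all genes, which stayed at -0.07, so they are no check of it. Ifi27l2a was lower throughout (-2.38 to -1.15, the latter with the same mix of lineages) and Ifitm3 higher throughout (0.89 to 1.20). The number of members higher past the fold was 0 with each cell scaled before averaging and 0 with the same mix of lineages, where Ifitm3 was at 0.98 and 0.89. With a fold of 0.5, 2 were higher and 5 lower, beside 8.27% and 16.7% of all genes. Isg15 was at -0.05 with each cell scaled first, and Ddx58 at -0.03 with the same mix; the other named members kept their direction. In ungated cells the median was -0.54 with gating on all UMIs and -0.18 with median-of-ratios size factors. With thinning to 1000 UMIs it was -0.21 in HSC-gated and -0.24 in LMPP-gated cells. The share of cells with several effector UMIs was 6.78% in WT and 5.56% in cKO at 2 or more UMIs, 0.604% and 0.418% at 5 or more, 0.750% and 0.531% at 1000 UMIs per cell, and 7.08% and 16.6% with all UMIs, where the order turned. Keeping doublets in for this share, and scaling each cell first within lineages, were chosen after seeing the data and moved neither. No paired analysis was possible because each genotype has 1 library. Depth limits the members under 5 CPM and the LMPP-gated cKO cells, which held 97 effector UMIs.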
